A study of Mus musculus with 13 samples.

Results

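The 9 genes described here, Egr1, Egr2, Egr3, Egr4, Nr4a1, Nr4a2, Nr4a3, Arc and Npas4, are activity genes of the brain and were chosen by symbol from a table of 37636 gene IDs. Each symbol matched 1 row. Messenger RNA was sequenced from brain of male Balb/c mice aged 6 to 8 weeks, in 13 libraries, and the labels name no brain region. The 4 Con libraries came from mice in the normal condition without 6-OHG. The 5 Mod libraries came from mice exposed to 8000 m for 24 h without 6-OHG, and the 4 libraries of the third group came from mice with the same exposure and with 6-OHG, a compound known from the labels only by this code and given at a dose the labels do not state. Strain, sex and age range are shared by all 3 groups. Whether the replicates of a group are different mice is not stated, so the p-values below may measure only technical spread.

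All 9 are protein-coding, and in GENCODE M21 on GRCm38 none shares exon bases with another gene. Egr1 lies on chromosome 18, Egr2 on chromosome 10 (67535475 to 67542188, plus strand), Egr3 on chromosome 14 (70077203 to 70082614, plus) and Egr4 on chromosome 6 (85511121 to 85513589, minus). Nr4a1 lies on chromosome 15 (101254269 to 101274795, plus), Nr4a2 on chromosome 2 (57106830 to 57124003, minus) and Nr4a3 on chromosome 4 (48045153 to 48086447, plus). Arc is also on chromosome 15 (74669083 to 74672570, minus), and Npas4 is on chromosome 19 (4984355 to 4990316, minus).

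These are immediate early genes, whose transcripts appear within minutes of synaptic input and fade again quickly, without the need for new protein. Calcium entry through NMDA receptors and calcium channels acts on kinases that activate CREB at cAMP response elements and SRF with its Elk partners at CArG boxes, and both kinds of site lie near the starts of many such genes. The EGR proteins are zinc finger transcription factors that bind GC-rich sites, and Nab corepressors hold back Egr1, Egr2 and Egr3. The NR4A proteins are orphan nuclear receptors, active without a known ligand and set mainly by how much of them is made. Npas4 is a neuronal transcription factor, while Arc acts at the synapse, where it draws AMPA receptors out of the membrane. Cortex, hippocampus and striatum are the brain regions best known for them.

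Promoter windows were read for 6 of the 9 genes, Egr2, Egr4, Nr4a1, Nr4a2, Nr4a3 and Npas4, from RefSeq's annotation of GRCm38.p6 (250 bases before to 50 after a transcript start). The 5 stretches printed here belong to 4 genes that passed tests in the results below and to Nr4a2, which passed in none. Only bases outside annotated exons are shown, 5′ to 3′ on the gene's strand: for Egr2 chr10:67537619-67537868 (plus strand), for Egr4 chr6:85513590-85513839 (minus strand), for Nr4a1 chr15:101266596-101266845 (plus strand), for Nr4a2 chr2:57124004-57124253 (minus strand) and for Nr4a3 chr4:48045055-48045152 (plus strand). Capitals mark TGACG, the core of the cAMP response element, on either strand, and in Egr2 also the CArG box.
Egr2: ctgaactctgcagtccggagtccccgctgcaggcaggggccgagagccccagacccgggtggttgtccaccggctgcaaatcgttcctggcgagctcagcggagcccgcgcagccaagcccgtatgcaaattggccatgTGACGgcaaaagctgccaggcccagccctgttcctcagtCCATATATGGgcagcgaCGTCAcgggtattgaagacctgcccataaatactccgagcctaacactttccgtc
Egr4: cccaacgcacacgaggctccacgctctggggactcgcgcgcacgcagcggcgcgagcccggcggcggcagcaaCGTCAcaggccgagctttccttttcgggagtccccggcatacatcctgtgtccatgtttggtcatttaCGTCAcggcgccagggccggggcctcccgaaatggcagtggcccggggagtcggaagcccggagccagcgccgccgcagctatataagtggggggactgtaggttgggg
Nr4a1: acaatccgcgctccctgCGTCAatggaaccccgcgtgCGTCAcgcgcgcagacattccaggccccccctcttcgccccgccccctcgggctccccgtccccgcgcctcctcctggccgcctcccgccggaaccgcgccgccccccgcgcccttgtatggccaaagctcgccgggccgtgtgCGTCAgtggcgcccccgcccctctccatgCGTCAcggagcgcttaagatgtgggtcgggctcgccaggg
Nr4a2: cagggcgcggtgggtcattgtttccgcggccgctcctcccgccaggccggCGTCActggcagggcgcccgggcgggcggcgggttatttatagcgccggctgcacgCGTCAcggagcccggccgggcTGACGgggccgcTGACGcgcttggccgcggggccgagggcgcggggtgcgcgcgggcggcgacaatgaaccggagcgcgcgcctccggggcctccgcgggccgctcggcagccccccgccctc
Nr4a3: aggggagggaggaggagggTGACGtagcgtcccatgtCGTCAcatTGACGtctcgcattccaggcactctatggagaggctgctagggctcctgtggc

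TGACG lay in at least 1 window of each of the 6 genes, against 20.8% of the 32851 windows of 300 bases in the table. The windows of Nr4a1, Nr4a2 and Nr4a3 held 4 matches each, a number reached by 0.231% of all windows. For Nr4a3, 3 of these lie in the printed stretch. Egr4, Npas4 and the Egr2 window shown held 2 each, a number reached by 5.01% of all windows. Egr2 has 5 windows, of which 3 that overlap each other held TGACG. The whole element TGACGTCA (1.79% of all windows) was in 0 of the members' windows, as were the EGR site GCGTGGGCG (0.612%) and the NR4A site AAAGGTCA (1.51%), both strands searched. A CArG box (1.63% of all windows) was found in the Egr2 window shown, with its first base 72 bases before the transcript start. The 2 windows that overlap it hold the same box, and another Egr2 window holds a different one, also beginning 72 bases before its start. The windows of the other 5 genes held none. These matches describe letters and no binding was measured.

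Levels are FPKM, which the authors scaled by gene length and library, so they can be set side by side between genes. A mean of at least 1 FPKM over the 13 libraries was required for testing, and all 9 members were among the 13905 genes that reached it. Egr1 was the highest at 36.9 ± 17.4 FPKM (mean ± SD, n = 13), followed by Arc at 30.0 ± 19.6. Egr1 was above Arc in 11 of 13 libraries. Within Con the mean of Arc was the higher, and the pair did not differ beyond its spread. Nr4a1 at 16.1 ± 8.65 and Egr3 at 15.2 ± 7.70 came next and were not ordered, since Nr4a1 was above Egr3 in 6 of 13 libraries. Nr4a2 at 6.68 ± 1.44, Egr4 at 5.52 ± 2.53, Npas4 at 4.13 ± 1.64 and Nr4a3 at 3.90 ± 1.99 formed a lower tier, and Egr2 was last at 2.25 ± 2.01. Neighbours in that tier overlapped widely: Nr4a2 was above Egr4 in 10 libraries, Egr4 above Npas4 in 9 and Npas4 above Nr4a3 in 7. Arc was above Nr4a1, and Egr3 above Nr4a2, in all 13 libraries.

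2 libraries stood apart from their groups. The counts of members called in the 3 comparisons are given below with and without them. They were picked from values in these data, so p-values of fits without them are not independent of the members' levels. Other results cover all 13 libraries unless stated. Con replicate 4 had the lowest value of its group for 8 of the 9 members and 6-OHG replicate 2 likewise for 8 of 9. Over all genes tested the same libraries were the lowest of their group for 31.4% and 27.3%. These shares were close to those of Con 2 (31.5%) and 6-OHG 3 (27.1%), so they do not set the 2 libraries apart. Con 4 and 6-OHG 2 correlated least with their own group over all genes, at a mean r of 0.969 and 0.963 against 0.974 to 0.983 for the other 11 libraries. Markers of excitatory neurons of cortex and hippocampus (18 genes, none at 0 in any library) summed to 443 FPKM in Con 4 and 574 in 6-OHG 2, against 929 to 1295 in the other Con libraries, 764 to 1062 in Mod and 905 to 1268 in the other 6-OHG libraries. Markers of hindbrain and brain stem (13 genes) summed to 31.1 FPKM in each of these 2 libraries, with 0 markers at 0. In the other Con libraries that sum was 1.32 to 3.77, in Mod 1.69 to 7.66 and in the other 6-OHG libraries 1.34 to 1.49, with 1 to 6 markers at 0. Tph2, the enzyme of serotonin neurons, was at 16.5 and 13.0 FPKM in the 2 libraries and at 0.230 to 5.12 in the others. Striatum markers (15 genes) varied several-fold inside groups, at 179, 452, 666, 655 and 129 FPKM in Mod 1 to 5. With 6-OHG they summed to 532, 80.5, 205 and 516 in replicates 1 to 4, and in Con to 295 (Con 4) to 521. Thalamus markers (12 genes) summed to 56.8 to 134 FPKM in Con, 43.0 to 102 in Mod and 32.5 to 100.2 with 6-OHG. Of the 18 cortex and hippocampus markers, 0 passed in Mod against Con or in 6-OHG against Mod over all libraries, while 3 fell and 4 rose in these comparisons without the 2 libraries. Over all genes 23.8% and 15.3% were called in these comparisons, and 29.5% and 21.0% without the 2 libraries. The part of these markers in the members' values was not tested. In bulk tissue, fewer cells of a type and less RNA per cell cannot be told apart.

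**Figure D1:**
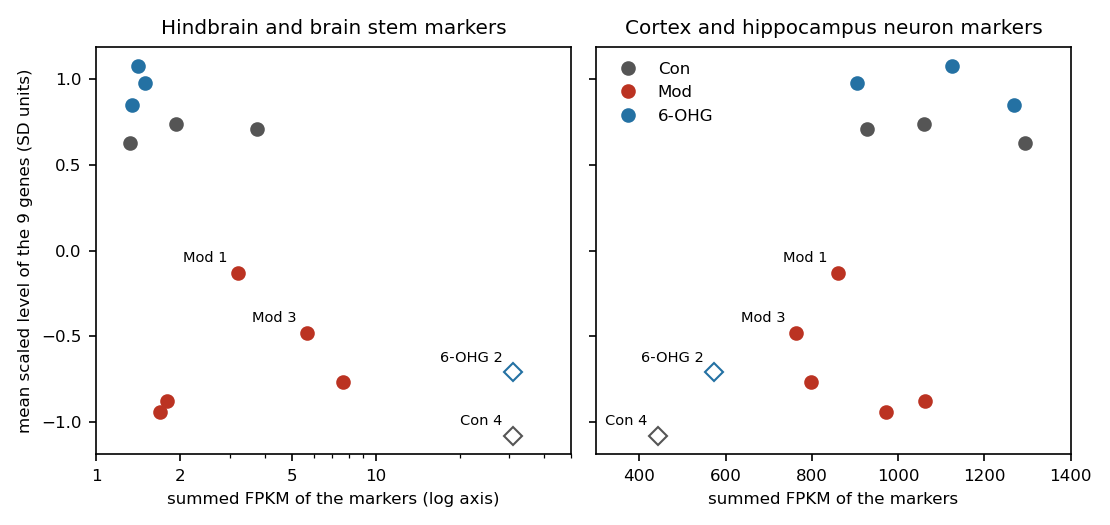
The mean scaled level of the 9 genes (each gene set to mean 0 and SD 1 over the 13 libraries) is plotted for each library against the summed FPKM of 13 hindbrain and brain stem markers (left, log axis) and of 18 cortex and hippocampus neuron markers (right), with Con 4 and 6-OHG 2 as open diamonds. Con 4 and 6-OHG 2 lie at 31.1 on the left axis and at 443 and 574 on the right. The Mod libraries lie at 1.69 to 7.66 on the left and at 764 to 1062 on the right, with mean scaled levels of -0.94 to -0.13. The part of the markers in these levels was not tested.

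In the first comparison, Mod against Con, which asks what the altitude exposure changed, 8 of the 9 members had lower means in Mod, and 1 of 9 fell at an adjusted p under 0.05 in limma. Of all genes tested 23.8% were called (9.81% lower), 1940 higher and 1364 lower, a split that became 1095 and 1603 with the columns scaled to equal sums. The median log2 change was -0.61 for the members and 0.01 for all genes. Without Con 4 and 6-OHG 2, 7 of the 9 were called, all lower, against 29.5% of all genes (13.0% lower), with a median of -1.02 for the members and 0.02 for all genes. Each of these 2 libraries was the lowest of its group for 8 of 9 members, so leaving them out favours such calls. In the second comparison, 6-OHG against Mod, which asks what the compound changed under altitude, 3 of 9 rose, against 15.3% of all genes called (6.98% higher), and the medians were 0.85 and -0.02. The 970 higher and 1161 lower calls there became 1385 and 398 with equal sums and 1307 and 965 with quantile normalization. Without the 2 libraries 7 of 9 rose, against 21.0% of all genes called (8.87% higher), with a median of 1.03 for the members and -0.03 for all genes. In the third comparison, 6-OHG against Con, 0 of 9 were called by limma, against 30.7% of all genes, and 0 had an unadjusted p under 0.05, against 42.4% of all genes, with medians of 0.16 and 0.00. Also, 0 of 9 had groups that did not overlap there, against 28.1% of all genes. Leaving out the 2 libraries gave 2 of 9 called, 1 in each direction, against 29.1% of all genes (14.5% higher and 14.7% lower). Single libraries mattered as well. In Mod against Con 5 members were called without Con 4 and 3 without 6-OHG 2, with 3468 and 3653 of 13905 genes called. In 6-OHG against Mod 5 members were called without Con 4 or 6-OHG 2, with 2345 and 2261 genes called. There 1 member was called without Mod 5 or 6-OHG 1, with 1593 and 1542 genes. The number was 0 without Mod 2, 6-OHG 3 or 6-OHG 4, with 1532, 1586 and 1357 genes. Testing genes under 1 FPKM too also gave 0 members, with 1444 of 36406 genes called. The comparisons share their Mod, Con or 6-OHG libraries, so a low or high shared group enters both.

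**Figure D2:**
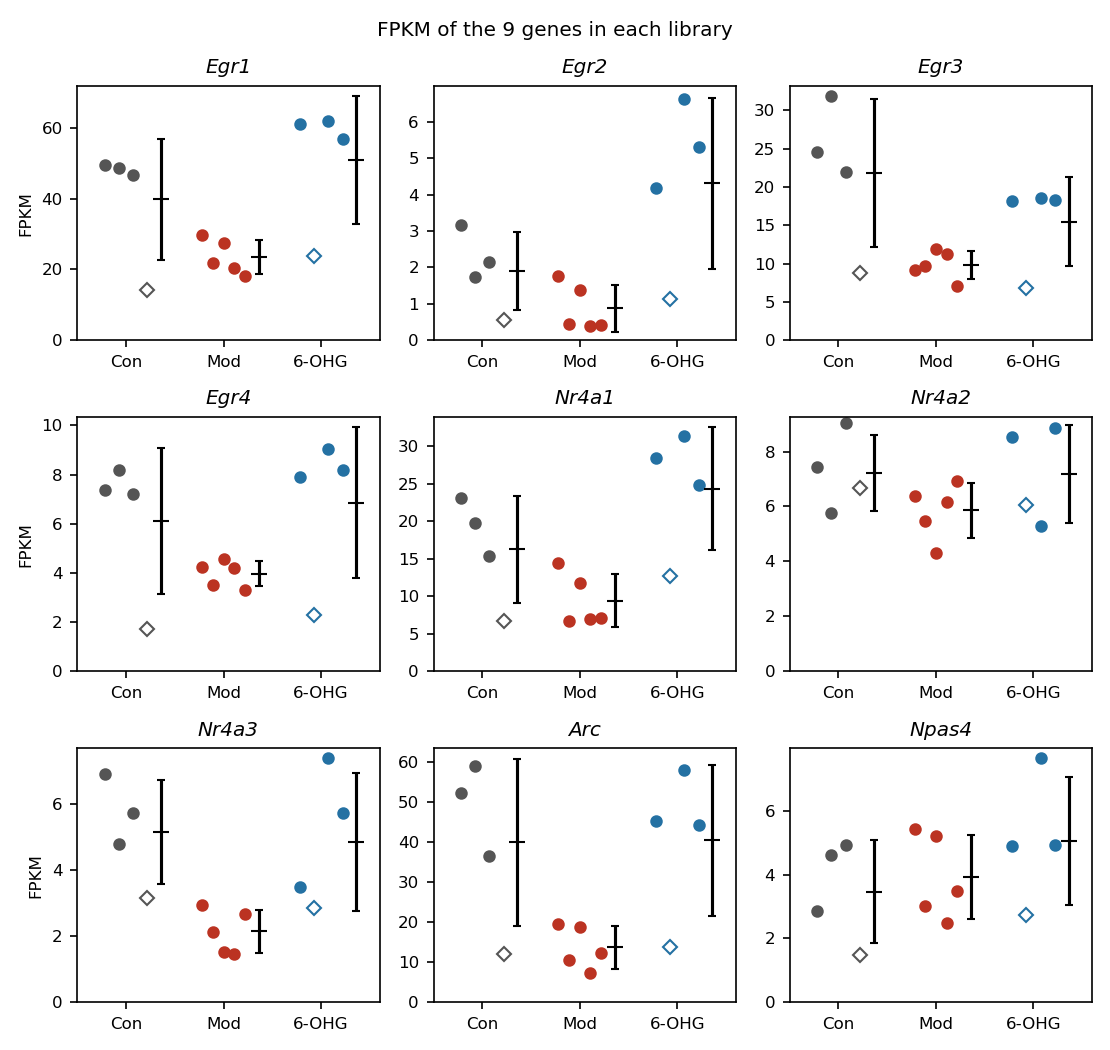
FPKM of each of the 9 genes in every library, with 1 panel per gene, 1 point per library and the mean ± SD beside each group (n = 4, 5 and 4 for Con, Mod and 6-OHG). Open diamonds are Con 4 and 6-OHG 2; for Egr1 these 2 libraries read 14.3 and 23.9 FPKM while the other Con and 6-OHG libraries sit between 46.6 and 61.9, above all 5 Mod libraries.

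Egr1 encodes the best studied EGR factor, used as a marker of synaptic plasticity. Its values were 49.4, 48.7, 46.6 and 14.3 FPKM in Con 1 to 4, 29.7, 21.9, 27.5, 20.4 and 18.3 in Mod 1 to 5, and 61.0, 23.9, 61.9 and 56.7 in 6-OHG 1 to 4. 3 Con libraries and 3 6-OHG libraries were above every Mod library, while Con 4 was below all of Mod and 6-OHG 2 lay inside it. The log2 change of Mod against Con was -0.60 (SE 0.36, 95% interval -1.38 to 0.18, limma adjusted p = 0.252), and of 6-OHG against Mod 1.01 (0.23 to 1.79, adjusted p = 0.077). Neither passed. With the 2 libraries left out Egr1 was lower in Mod by a log2 change of -1.03 (adjusted p = 0.000275) and higher with 6-OHG by 1.33 (adjusted p = 0.000855), and the groups did not overlap. The 3 remaining Con libraries had a mean of 48.2 ± 1.47 FPKM and the 3 remaining 6-OHG libraries 59.9 ± 2.80. Their difference had a log2 size of 0.31 (-0.02 to 0.63, adjusted p = 0.138), although all 3 6-OHG libraries were above all 3 of Con.

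Egr2, which is also known for its role in myelination and hindbrain patterning, was the lowest of the family. Its values were 3.16, 1.74, 2.16 and 0.554 FPKM in Con, 1.77, 0.441, 1.37, 0.397 and 0.426 in Mod, and 4.17, 1.14, 6.63 and 5.31 with 6-OHG. The 3 highest 6-OHG libraries were above all other libraries, and 6-OHG 2 lay among the Mod values. Egr2 rose in 6-OHG against Mod by a log2 change of 1.42 (SE 0.37, interval 0.61 to 2.22, limma adjusted p = 0.0233), from a mean of 0.881 ± 0.645 (n = 5) to 4.31 ± 2.34 (n = 4), a ratio of 4.90, and by 1.81 without the 2 libraries (adjusted p = 0.00173), a call made in 20 of 27 alternative fits. In Mod against Con the change was -0.61 (-1.41 to 0.20, adjusted p = 0.267), and -0.88 without the 2 libraries (adjusted p = 0.021) with groups that still overlapped. In 6-OHG against Con it was 0.81 (adjusted p = 0.134), and 0.93 without them (0.32 to 1.54, adjusted p = 0.0276), and it passed only where 6-OHG 2 was left out, alone or with Con 4. Without both the means were 5.37 ± 1.23 against 2.36 ± 0.731 FPKM (n = 3 each).

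Egr3, a further EGR factor induced by activity, measured 24.6, 31.9, 22.0 and 8.76 FPKM in Con, 9.23, 9.66, 11.9, 11.2 and 7.13 in Mod, and 18.2, 6.80, 18.6 and 18.3 with 6-OHG. Con 1 to 3 were the highest 3 libraries, and 6-OHG 1, 3 and 4 lay between them and Mod. In Mod against Con the log2 change was -0.96 (SE 0.34, interval -1.70 to -0.23, limma adjusted p = 0.0565), and -1.33 without the 2 libraries (adjusted p = 9.69e-05). In 6-OHG against Mod it was 0.53 (-0.20 to 1.27, adjusted p = 0.32), and 0.86 without them (0.54 to 1.17, adjusted p = 0.00304). In that fit Egr3 was also below Con in the 6-OHG group by a log2 change of -0.47 (-0.82 to -0.12, adjusted p = 0.0473), with means of 18.4 ± 0.240 and 26.1 ± 5.12 FPKM (n = 3 each). With all libraries that change was -0.43 (adjusted p = 0.383).

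Egr4, the shortest of the 9 by exon length (2148 bases), measured 7.38, 8.20, 7.21 and 1.73 FPKM in Con, 4.23, 3.53, 4.55, 4.19 and 3.33 in Mod, and 7.90, 2.31, 9.05 and 8.18 with 6-OHG. Mod was the tightest group (3.97 ± 0.513, n = 5), and Con 4 and 6-OHG 2 both lay below all 5 of its libraries. The changes over all libraries were -0.38 in Mod against Con (-1.18 to 0.41, limma adjusted p = 0.492) and 0.55 in 6-OHG against Mod (-0.25 to 1.34, adjusted p = 0.345). Without the 2 libraries they were -0.80 (adjusted p = 0.000105) and 0.92 (adjusted p = 0.000855), and in 6-OHG against Con 0.13 (-0.09 to 0.34, adjusted p = 0.357).

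Nr4a1, the NR4A receptor also called Nur77, measured 23.1, 19.7, 15.4 and 6.72 FPKM in Con, 14.4, 6.68, 11.8, 6.97 and 7.15 in Mod, and 28.4, 12.7, 31.4 and 24.8 with 6-OHG. 6-OHG 1, 3 and 4 were the highest 3 libraries, and 6-OHG 2 was above 4 of the 5 Mod libraries. Nr4a1 rose in 6-OHG against Mod by a log2 change of 1.27 (SE 0.34, interval 0.53 to 2.02, limma adjusted p = 0.0262, ratio of means 2.59), and by 1.55 without the 2 libraries (adjusted p = 0.00196), a call made in 20 of 28 alternative fits. In Mod against Con the change was -0.67 (-1.41 to 0.08, adjusted p = 0.182), and -1.02 without them (adjusted p = 0.00691). In 6-OHG against Con it was 0.61 (adjusted p = 0.227) and 0.53 (-0.03 to 1.09, adjusted p = 0.138).

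Nr4a3, the third receptor, also called NOR1, was the one member called in Mod against Con with all libraries. It measured 6.89, 4.79, 5.72 and 3.16 FPKM in Con, 2.94, 2.13, 1.53, 1.46 and 2.66 in Mod, and 3.49, 2.84, 7.39 and 5.71 with 6-OHG. All 4 Con libraries were above all 5 of Mod, and Nr4a3 was the only member for which this held, against 22.4% of all genes tested (8.87% lower). Nr4a3 fell in Mod by a log2 change of -0.95 (SE 0.24, interval -1.48 to -0.43, limma adjusted p = 0.0132), from 5.14 ± 1.58 (n = 4) to 2.15 ± 0.662 FPKM (n = 5), a ratio of 0.417, and by -1.13 without the 2 libraries (adjusted p = 0.00264). This call was made in each of the 27 alternative fits that tested the gene. Nr4a3 rose in 6-OHG against Mod by 0.85 (0.33 to 1.38, adjusted p = 0.0319), and by 1.03 without the 2 libraries (adjusted p = 0.00686). That call was made in 18 of the 27 alternative fits and was lost, for example, with length and GC trends removed (0.80, adjusted p = 0.0715). 6-OHG 2 stayed just under the highest Mod library. In 6-OHG against Con the change was -0.10 (-0.65 to 0.45, adjusted p = 0.803), and -0.09 without them (-0.61 to 0.42).

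Nr4a2, also called Nurr1 and needed for dopamine neurons, passed in none of the 3 comparisons, with or without the 2 libraries. It measured 7.42, 5.75, 9.02 and 6.67 FPKM in Con, 6.38, 5.48, 4.31, 6.17 and 6.94 in Mod, and 8.53, 6.04, 5.28 and 8.84 with 6-OHG. The 3 groups overlapped throughout, and Con 4 and 6-OHG 2 were not the lowest of theirs. The log2 changes were -0.26 in Mod against Con (SE 0.16, -0.60 to 0.08, limma adjusted p = 0.261), 0.24 in 6-OHG against Mod (-0.10 to 0.58, adjusted p = 0.333) and -0.02 in 6-OHG against Con (-0.38 to 0.34, adjusted p = 0.945). Leaving out Con 4 and 6-OHG 2 gave -0.29, 0.30 and 0.02, with limma adjusted p of 0.247, 0.239 and 0.961. Its coefficient of variation over 13 libraries was 21.5%, against 39.8% to 89.2% for the other 8. Of the 13 dopamine neuron genes that Nr4a2 is known to drive or accompany, 7 reached the level for testing and 0 passed in any comparison over all libraries. Th alone passed without the 2 libraries, lower in 6-OHG against Mod (-1.73, adjusted p = 0.0288). Th, which encodes the enzyme that makes the dopamine precursor, had means of 7.00 ± 10.2, 5.66 ± 3.80 and 3.78 ± 6.17 FPKM in Con, Mod and 6-OHG, a spread within groups larger than the differences between them. The dopamine transporter Slc6a3 (8.89 ± 14.2, 5.38 ± 4.44 and 4.12 ± 7.73) and the receptors Ret and Drd2 did not pass either. Over all genes tested, 23.8%, 15.3% and 30.7% were called in the 3 comparisons.

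Arc, the synaptic effector, had the largest change of the 9 in Mod against Con and the largest SD within Con. It measured 52.2, 59.0, 36.6 and 12.1 FPKM in Con, 19.6, 10.7, 18.8, 7.22 and 12.4 in Mod, and 45.3, 13.9, 58.1 and 44.3 with 6-OHG. Con 1 to 3 and 6-OHG 1, 3 and 4 were all above every Mod library, and Con 4 and 6-OHG 2 both lay inside the Mod range. The log2 change was -1.35 in Mod against Con (SE 0.48, -2.38 to -0.31, limma adjusted p = 0.0583) and 1.40 in 6-OHG against Mod (0.37 to 2.44, adjusted p = 0.0651), so neither passed. Leaving them out, Arc was lower in Mod by a log2 change of -1.82 (adjusted p = 0.000734, ratio of means 0.279) and higher with 6-OHG by 1.84 (adjusted p = 0.00207, ratio of means 3.58). Its level with 6-OHG was then 49.2 ± 7.68 FPKM against 49.3 ± 11.5 in Con (n = 3 each), a log2 change of 0.01 with an interval of -0.66 to 0.68.

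Npas4, the neuronal factor that pairs with Arnt2, passed in none of the 3 comparisons, with or without the 2 libraries. It measured 2.86, 4.60, 4.93 and 1.48 FPKM in Con, 5.41, 3.02, 5.22, 2.47 and 3.48 in Mod, and 4.89, 2.73, 7.65 and 4.93 with 6-OHG. Mod 1 and Mod 3 were above all Con libraries, and the 3 groups overlapped. The changes were 0.18 in Mod against Con (-0.45 to 0.80, limma adjusted p = 0.705), 0.28 in 6-OHG against Mod (-0.35 to 0.90, adjusted p = 0.561) and 0.46 in 6-OHG against Con (-0.20 to 1.11, adjusted p = 0.277). Without the 2 libraries the first turned to -0.08 (-0.57 to 0.42, adjusted p = 0.826) and the second was 0.49 (adjusted p = 0.142). A fit without them that added the first principal component of brain region markers was chosen after seeing the data. There Npas4 was higher in 6-OHG against Mod (0.884, limma adjusted p = 0.0427) and in 6-OHG against Con (0.707, adjusted p = 0.0476).

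**Figure D3:**
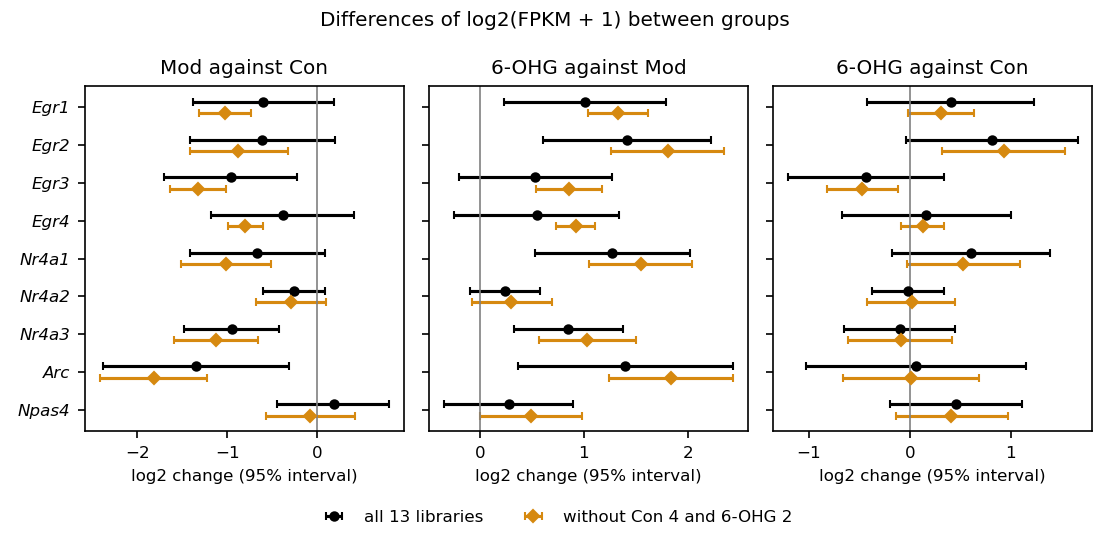
Differences between group means of log2(FPKM + 1) with 95% intervals for the 9 genes in the 3 comparisons, over all 13 libraries (circles) and without Con 4 and 6-OHG 2 (diamonds). Arc runs from -1.35 to -1.82 in Mod against Con and from 1.40 to 1.84 in 6-OHG against Mod, while Nr4a2 stays within 0.30 of 0 in all 3 panels.

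With the 2 libraries left out, 6 members had Mod values that did not overlap Con (33.1% of all genes; 14.8% lower) and 7 had 6-OHG values that did not overlap Mod (25.9% of all genes; 11.3% higher). Over all libraries 0 members had 6-OHG values clear of Mod, against 15.9% of all genes. In 6-OHG against Con without the 2 libraries, Egr1, Egr2 and Nr4a1 were higher and Egr3 lower with no overlap, 4 of 9 members against 44.9% of all genes. Leaving out 2 libraries in which the members are low is not independent of the members' levels. With the first principal component of the brain region markers as a term in the model and all 13 libraries kept, 5 of 9 members passed in Mod against Con, all lower, against 33.9% of all genes (15.0% lower), and 5 of 9 in 6-OHG against Mod, all higher, against 22.6% (10.5% higher). In 6-OHG against Con 1 of 9 passed in that fit, Egr3, which was lower, against 39.0% (18.7% lower). The component held 44.8% of the variance of the 7 region lists. Its lowest scores were those of Con 4 (-3.30) and 6-OHG 2 (-2.70), against -1.33 to 2.47 in the other libraries. This fit is therefore not a separate check on leaving the 2 libraries out.

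Most members also varied together inside the Mod group. Mod 1 and Mod 3 were above the other 3 Mod libraries for Egr1, Egr2, Egr4, Nr4a1, Arc and Npas4, and Mod 1 was the highest of Mod for 6 of the 9. Egr3, Nr4a2 and Nr4a3 did not follow. For Egr3, Mod 1 (9.23 FPKM) was below Mod 2 (9.66) and Mod 4 (11.2). Mod 3 was the lowest of Mod for Nr4a2 (4.31) and was below Mod 2 for Nr4a3 (1.53 against 2.13). The mean scaled level of the 9 genes was -0.13 in Mod 1 and -0.48 in Mod 3 against -0.77 to -0.94 in Mod 2, 4 and 5. Cortex marker sums in Mod 1 to 5 were 861, 1062, 764, 971 and 799 FPKM. Mod 2 and Mod 4 lay within the 905 to 1295 of the Con and 6-OHG libraries other than the 2 that stood apart, and Mod 1, 3 and 5 lay below that range. Within the 6-OHG group replicate 3 was the highest for 8 of 9. Other marker lists moved with the groups too. Hypothalamus markers (15 genes) summed to 72.6 to 134 FPKM in Mod against 5.97 to 81.1 in Con and 3.03 to 43.8 with 6-OHG. Of 6 tested 4 rose in Mod against Con and 4 fell in 6-OHG against Mod. Without Con 4 and 6-OHG 2 these became 1 and 2. Hypothalamic peptides lead that list, and 0 to 5 of the 15 were at 0 per library. Liver markers (10 genes, Ttr of the choroid plexus included) summed to 433 to 789 FPKM in Con, 72.2 to 331 in Mod and 46.4 to 392 with 6-OHG, with 0 to 6 at 0, and 5 of 6 tested fell in Mod. Endothelial markers (12 tested) had 6 higher and 3 lower in Mod against Con and 5 higher and 4 lower in 6-OHG against Con, with sums of 86.4 to 103 FPKM in Con, 80.5 to 96.4 in Mod and 72.6 to 99.3 with 6-OHG. Of 12 microglia markers, 2 were lower in Mod against Con, 6 without the 2 libraries, and 7 were lower in 6-OHG against Con, 5 without them, with sums of 118 to 134, 95.7 to 116 and 81.0 to 112 FPKM. Of 12 oligodendrocyte markers 2 were lower in Mod and 5 with 6-OHG, each against Con, with sums of 1276 to 1725, 856 to 2002 and 694 to 1277 FPKM. None of the markers of these 3 lists was at 0 in any library. Over all genes tested, 23.8%, 15.3% and 30.7% were called in the 3 comparisons, and 29.5%, 21.0% and 29.1% without the 2 libraries. The part of these lists in the members' differences was not tested.

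Likeness was measured as the root mean square difference between scaled profiles over the 13 libraries, where 0 is an identical profile. Among the members Egr2 and Nr4a1 were closest (0.26), then Egr1 and Nr4a1 (0.28), Egr1 and Egr4 (0.32), and Egr1 and Arc (0.35). Nr4a2 was 0.99 to 1.39 from each of the other 8. Among all other genes tested, Dusp6, a phosphatase of the kinase ERK, was nearest to the mean of the members at 0.21, against a median of 1.41 over all genes, and it was also nearest to Egr1 (0.20), Arc (0.27) and Nr4a1 (0.30). Its values were 18.6, 18.2, 13.9 and 6.64 FPKM in Con, 11.7, 8.55, 9.81, 8.03 and 8.64 in Mod, and 19.4, 8.66, 20.0 and 17.3 with 6-OHG. Dusp6 showed the same low Con 4 and 6-OHG 2 as the members.

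The kinesin Kif5c (0.37) and the kinase Stk17b (0.38) followed Dusp6 for the mean of the members. Fos, the immediate early gene of the AP-1 factor, was nearest to Egr2 (0.38), followed by the annotated miRNA locus Mir212 (0.40) and Mtf1 (0.41). Bsn and Kif5c (0.35 each) followed Dusp6 for Egr1, Kif5c (0.39) and Fos (0.41) for Nr4a1, and Stk17b (0.38) and Ap3b1 (0.42) for Arc. Egr3 had Rock2 (0.26), Jcad (0.26) and Pak7 (0.27), Egr4 had Itgav (0.32), Ccnd2 (0.33) and Dusp6 (0.34), and Nr4a3 had Adam10 (0.39), Serac1 (0.40) and Homer2 (0.43). Nr4a2 had Tmem30a (0.48), Slitrk4 (0.53) and Srp54c (0.55), and Npas4 had Zfp335 (0.52) before Junb (0.59) and Ccn1 (0.62). These genes were picked for likeness, so their levels are descriptions with no test. All profiles share the 13 libraries and their tissue makeup.

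**Figure D4:**
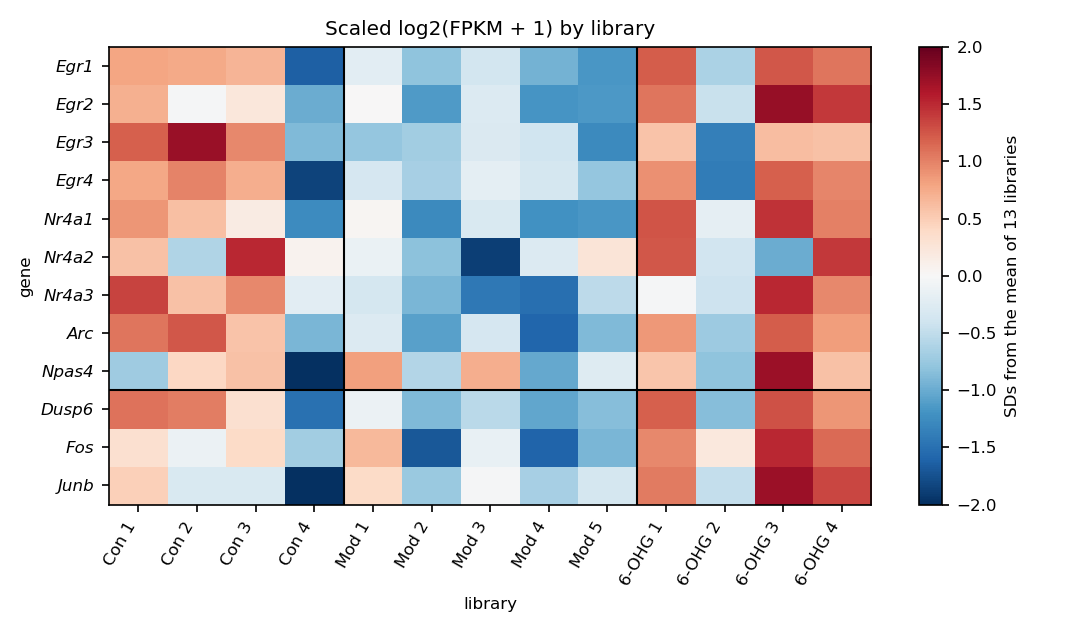
Scaled log2(FPKM + 1) of the 9 genes (above the line) and of Dusp6, Fos and Junb (below it) in the 13 libraries, in SDs from each gene's mean, with colours that stop at 2 SDs. Columns Con 4 and 6-OHG 2 are blue for nearly all genes, and Nr4a2 has its own pattern. Mod 1 and Mod 3 are higher than the other Mod libraries for most genes, but not for Egr3, Nr4a2 and Nr4a3.

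Fos measured 9.30, 7.56, 9.57 and 5.65 FPKM in Con, 10.8, 3.35, 7.44, 3.55 and 5.06 in Mod, and 12.5, 8.80, 16.0 and 13.6 with 6-OHG. The 3 highest libraries were 6-OHG 1, 3 and 4, and Mod 1 came next, above all of Con. Junb, another AP-1 subunit, had means of 13.0 ± 4.67, 13.8 ± 2.48 and 22.1 ± 6.78 FPKM in Con, Mod and 6-OHG.

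The wider set of other immediate early genes moved in both directions. Of 40 tested, 8 were higher and 4 lower in Mod against Con, 12 higher and 2 lower in 6-OHG against Mod, and 14 higher and 3 lower in 6-OHG against Con. The medians were 0.01, 0.27 and 0.24. Without the 2 libraries the first comparison had 6 higher and 10 lower, the second 17 and 3, and the third 14 and 4. Over all genes tested, 23.8%, 15.3% and 30.7% were called in the 3 comparisons, and 29.5%, 21.0% and 29.1% without the 2 libraries. Of all genes, 9.81% were lower in Mod against Con and 6.98% higher in 6-OHG against Mod. Maff, a small Maf factor, rose from 0.410 ± 0.168 FPKM in Con to 3.40 ± 0.579 in Mod (1.64, adjusted p = 7.73e-06), the opposite direction to Nr4a3. Ppp1r15a, a phosphatase subunit of the stress response, rose in Mod (0.59, adjusted p = 0.000296) and had a change of 0.06 with 6-OHG against Mod (adjusted p = 0.69), at 5.18 ± 0.288 and 5.44 ± 0.621 FPKM. Klf6, a zinc finger factor, and the clock gene Per1 rose in 6-OHG against Mod by 0.39 (adjusted p = 0.00399) and 0.43 (adjusted p = 0.0153).

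Later activity-regulated genes, which are made after the transcription factors, were also measured. Of 28 tested, 3 were higher and 9 lower in Mod against Con (median -0.22), 4 higher and 1 lower in 6-OHG against Mod (0.05), and 2 higher and 7 lower in 6-OHG against Con (-0.23). Leaving out the 2 libraries gave 3 and 11, 6 and 1, and 2 and 9. The shares of all genes called were 23.8%, 15.3% and 30.7%, and 29.5%, 21.0% and 29.1% without the 2 libraries. Pcsk1, which encodes a protease that processes neuropeptides, measured 7.35, 7.44, 7.96 and 6.31 FPKM in Con, 4.44, 3.47, 3.40, 3.51 and 4.02 in Mod, and 5.60, 5.87, 6.06 and 5.31 with 6-OHG. The 3 groups did not overlap, and Con 4 and 6-OHG 2 were near their groups here. Pcsk1 fell in Mod by -0.79 (limma adjusted p = 2.49e-05), rose with 6-OHG by 0.50 (adjusted p = 0.00194) and was below Con by -0.30 (adjusted p = 0.0155).

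Gpr3, a receptor coupled to cAMP production, fell in Mod from 2.32 ± 0.530 to 0.915 ± 0.101 FPKM (-0.78, limma adjusted p = 0.000262) and rose to 1.64 ± 0.211 with 6-OHG (0.46, adjusted p = 0.0113). Vgf, the precursor of secreted neuropeptides, fell in Mod (-0.67, adjusted p = 0.000644) with a change of -0.11 between Mod and 6-OHG (adjusted p = 0.526). Egfl7, a protein that endothelial cells secrete, rose in Mod (0.77, adjusted p = 0.000109) and fell with 6-OHG (-0.56, adjusted p = 0.00239). Bdnf, the growth factor that Npas4 and CREB are known to drive, was chosen after its values were seen: it measured 2.83 ± 0.724, 1.30 ± 0.447 and 1.69 ± 0.459 FPKM in Con, Mod and 6-OHG, and fell in Mod by -0.74 (adjusted p = 0.00699) with no passing change between Mod and 6-OHG (0.23, adjusted p = 0.374).

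Among the members' partners and corepressors, 12 tested, 1 was higher in Mod against Con, 2 in 6-OHG against Mod and 3 in 6-OHG against Con, with 0 lower in each. Without the 2 libraries 1 was higher and 3 lower in Mod against Con, and 3 were higher and 0 lower in each of the others. The shares of all genes called were 23.8%, 15.3% and 30.7%, and 29.5%, 21.0% and 29.1% without the 2 libraries. Ep300 and Crebbp are acetyltransferases that CREB recruits. Ep300 rose with 6-OHG against Mod (0.33, limma adjusted p = 0.00182), and Crebbp rose in Mod against Con (0.27, adjusted p = 0.00416). The corepressor Ncor1 rose with 6-OHG against Mod (0.42, adjusted p = 0.00363). Arnt2, the partner of Npas4, had changes of -0.24 in Mod against Con (adjusted p = 0.132) and 0.31 in 6-OHG against Mod (adjusted p = 0.069), which passed at -0.35 and 0.36 without the 2 libraries (adjusted p = 0.00694 and 0.00959).

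Of 44 upstream activators tested, 2 were higher and 1 lower in Mod against Con, 3 higher and 2 lower in 6-OHG against Mod, and 9 higher and 1 lower in 6-OHG against Con. These became 2 and 6, 13 and 3, and 9 and 3 without the 2 libraries. The shares of all genes called were 23.8%, 15.3% and 30.7%, and 29.5%, 21.0% and 29.1% without the 2 libraries. The activator that fell in Mod over all libraries was Srf, the factor of the CArG box (-0.47, limma adjusted p = 0.0268, and -0.57 with adjusted p = 0.00267 without the 2 libraries), named here after its values were seen. Crtc2, a CREB coactivator, rose in Mod (0.31, limma adjusted p = 0.00113), as did Camkk1, a kinase upstream of CaMKIV (0.21, adjusted p = 0.0303, and 0.19 with adjusted p = 0.054 without the 2 libraries). In the ERK cascade, Braf rose with 6-OHG against Mod (0.32, adjusted p = 0.0128) and Map2k2 fell (-0.27, adjusted p = 0.0113). Of the 22 genes of Arc's protein partners and AMPA receptor traffic, 0 rose in any comparison over all libraries, and 3, 2 and 2 fell. Without the 2 libraries 1, 5 and 2 rose and 5, 1 and 3 fell. The shares of all genes to set beside these counts are those just given. Cacng2, the AMPA receptor auxiliary subunit stargazin, fell in Mod from 11.5 ± 0.470 to 8.45 ± 0.977 FPKM (-0.41, adjusted p = 0.00573), and Shank1, a scaffold, fell as well (-0.42, adjusted p = 0.0437). Sh3gl3, an endophilin, and Ap2m1, a clathrin adaptor subunit, fell with 6-OHG against Mod (-0.33, adjusted p = 0.023 and -0.19, adjusted p = 0.0241). Sh3gl3 did not pass without the 2 libraries (-0.28, adjusted p = 0.0515).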

How the data were processed

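The deposited table holds FPKM values made by the authors, with 1 column per library for 13 libraries and no raw counts. Per the labels' protocols, RNA was extracted with Trizol and read in pairs on an Illumina NovaSeq. The submitters' processing notes list HISAT2 2.2.1, featureCounts 1.5.0-p3, edgeR, DESeq2, StringTie 2.1.6, FastQC and cutadapt 1.9 and the builds GRCm38 and mm10. The step that each took, and so the source of the FPKM, is not given in the sources used here. Read totals are not given and could not be recovered, so no counting error is stated.

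Values were taken as log2(FPKM + 1), on which the fold change of a low gene comes out too small. In limma 3.58.1 (R 4.3.3) the 13905 genes averaging 1 FPKM or more were fitted with 1 mean per group and variances moderated along a trend with the mean. Benjamini-Hochberg adjustment covered all of these genes, with calls under 0.05. Members were named by symbol. From each of the other 6 gene lists up to 4 genes with the smallest p in any comparison are named, and for each member, and for the mean of the members, the 3 genes with the nearest profile. The 9 members and all lists were chosen with earlier results of these data known. Alternatives were a pseudocount of 0.1, no filter or 5 FPKM, 3 scalings, robust moderation, sample weights, fits of 2 groups, the replicate number as a block, removal of length and GC trends, a brain region component, and leaving libraries out. The labels do not set Con 4 and 6-OHG 2 apart, and these 2 libraries were picked from values in these data. The p-values of fits without them are not independent of that choice. Leaving them out while adding the region component was also chosen after seeing the data. The fit was tested on simulated data. Promoter coordinates are from RefSeq GRCm38.p6, and gene coordinates, exon lengths and GC from GENCODE M21. Figures were drawn with matplotlib 3.10.9.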

Additional observations from a re-analysis of the deposited data

Results flagged for a closer look

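In 27 groups (9 genes in 3 groups each), 5 values lay so far from the rest of their group that the gap exceeded the 95% critical value of Dixon's test for 4 samples. Chance gives about 1 in 20 such groups, but most of these genes vary together over the same libraries, so the 27 groups are not independent. Egr1 in Con replicate 4 was 14.3 FPKM, below the other 3 Con libraries, and Egr4 in that library was 1.73. In 6-OHG replicate 2, Egr1 was 23.9, Egr3 was 6.8 and Egr4 was 2.31 FPKM, each below the other 3 libraries. All 5 are the lowest value of their group and lie in the 2 libraries with high hindbrain and low cortex marker sums. The part of those markers in these values was not tested.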

How the results depend on the processing

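Over the members tested in the 28 alternatives, Mod against Con called 1 member and gave 0 with the filter at 5 FPKM, under which Egr2, Nr4a3 and Npas4 were not tested, 6 with sample weights, 3 with only the 2 groups, 5 with the region component, 7 without Con 4 and 6-OHG 2 and 7 with both together. It gave 1 to 5 over leave-one-out fits (5 without Con 4, 3 without 6-OHG 2). 6-OHG against Mod called 3 members and gave 0 with no filter, 1 with 5 FPKM, 6 with weights, 5 with only the 2 groups, 5 with the region component, 7 without the 2 libraries and 8 with both, and 0 to 5 leaving 1 library out. It was 0 without Mod 2, 6-OHG 3 or 6-OHG 4, 1 without Mod 5 or 6-OHG 1, and 5 without Con 4 or 6-OHG 2. 6-OHG against Con called 0 and gave 1 with the region component, 2 without the 2 libraries, 3 with both, and 0 to 1 leaving 1 out. The cause was not tested.

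Genes called numbered 3304, 2131 and 4268 of 13905. Sample weights gave 4687 and 2904 in the first and second, and fits of only the 2 groups 3369 and 1892. The region component gave 4707, 3143 and 5418 in the 3 comparisons. Without the 2 libraries the first was 4102 and the third 4050. With the region component as well the first was 4356. No filter gave 1444 of 36406 genes in the second. The filter at 5 FPKM gave 2061, 1750 and 2663 in the 3 comparisons, out of 7648 genes tested in place of 13905. The second fell to 976 with length and GC trends removed and to 1218 with the region component and the 2 libraries left out, was 2923 with only these left out, and was 1357 to 2345 leaving 1 library out. The first was 2382 to 3653 and the third 3427 to 4238. With columns scaled to equal sums, higher and lower calls were 1095 and 1603 in place of 1940 and 1364 in Mod against Con, and 1385 and 398 in place of 970 and 1161 in 6-OHG against Mod, where quantile normalization gave 1307 and 965. The members' counts stayed at 1, 3 and 0 under these scalings.

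Same-numbered libraries had deviations correlated at r = -0.48 to 0.35 over 12 pairs, and 3 of 13 libraries correlated best with their own number, so the numbers were not taken to pair the samples. With the replicate block the second comparison called 1 member, and genes called were 2039 and 846 in the first and second. With length and GC trends removed as well, it called 0 members, and genes called were 2133 and 64.

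All 22 reversals had adjusted p of at least 0.491. In Mod against Con, Npas4 became -0.0774 without the 2 libraries, was -0.0774 (without Con 4) to 0.341 leaving 1 library out, and became -0.177 with the region component as well. In 6-OHG against Con, Nr4a2 became 0.00628 with equal sums, 0.0156 without the 2 libraries and 0.114 with the region component as well, and was -0.117 to 0.0985 leaving 1 library out. Nr4a3 became 0.157 with both, and was -0.294 to 0.0815 leaving 1 out. Arc became -0.0057 with weights, -0.274 with the region component and was -0.421 (without Con 4) to 0.493 leaving 1 out. Egr4 became -0.17 with the region component and was -0.249 (without Con 4) to 0.54, and Egr1 was -0.0171 (without Con 4) to 0.728.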
